A study of Mus musculus with 23 samples.

Results

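Replication-dependent histone genes were followed over 9 groups of mouse bone marrow progenitors measured on 23 Affymetrix arrays. A probe set, the array's unit of measurement, counted as a member if the platform annotation gave it 1 gene symbol and that symbol was Hist1h to Hist4h in the older naming or H1f1 to H1f5, H2ac, H2bc, H3c or H4c with a number in the newer one. The rule used no expression values. It found 26 of 19937 genes, each with 1 probe set: 4 for the linker histone H1, 4 for H2A, 9 for H2B, 3 for H3 and 6 for H4. The annotation lists 62 symbols that fit the rule, and 36 of them occur only on 22 probe sets that carry several symbols, so most genes for H2A and H3 could not be read singly.

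Replication-dependent histone genes supply the proteins that package newly made DNA. They lie in clusters, have no introns in their classic form, and are transcribed mainly in S phase. Their mRNAs end in a conserved stem-loop instead of a poly(A) tail, are held and processed by the stem-loop binding protein SLBP, and are broken down when DNA synthesis stops. NPAT, activated by cyclin E and CDK2, switches the clusters on. Some members, H2bc4 and H1f2 among them, are known to give polyadenylated mRNA as well, which remains in cells that have left the cycle. In blood formation, fast division is a mark of the myeloid progenitors that lie between stem cells and granulocytes.

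The study examined the role of the transcription factor C/EBPα in leukaemia started by the fusion gene MLL-AF9. Every group carried floxed C/EBPa alleles (C/EBPa f/f) and had received 3 injections of poly I:C. The interferon-inducible Mx.1-Cre was present in knockout (KO) mice (Mx.1-Cre+) and absent in controls (Mx.1-Cre-), and it acts in all cells that respond to interferon. MLL-AF9 was delivered by the retrovirus MSCV-MLL-AF9-IRES-GFP to sorted, cultured cells, which were placed in lethally irradiated congenic recipients together with congenic marrow. Leukaemic granulocyte-macrophage progenitors (L-GMPs) of KO origin were on 2 arrays from secondary recipients and 1 array from a primary recipient, and all 3 stand for 1 leukaemia, which arose after vectors for IL-3 and GM-CSF had been given. Control L-GMPs were on 2 arrays from secondary and 2 from primary recipients. GFP-positive common myeloid progenitors (CMPs, 3 arrays) and KSLs, the Lin-Sca-1+c-kit+ cells that hold the stem cells (2 arrays), came from recipients of MLL-AF9 KO cells without leukaemia, and KSL arrays 1 and 2 are from the same mice as CMP arrays 1 and 2. Untransduced cells taken 5 days after poly I:C were KO CMPs (4 arrays), control granulocyte-macrophage progenitors (GMPs, 3 arrays) and control CMPs (4 arrays). No label gives the age of a mouse, and for most groups none says whether the arrays are separate animals, so p-values measure the spread between arrays.

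Cebpa itself lay between 4.33 and 5.55 on the 12 KO arrays and between 7.19 and 7.96 on the 11 control arrays, on the log2 scale. The labelled cell types were set against their markers. Fcgr3, the receptor that separates GMPs from CMPs, averaged 9.51 to 10.12 in the L-GMP groups and 9.69 in control GMPs, against 7.90 in control CMPs. Mpo, the granulocyte peroxidase, averaged 7.49 in MLL-AF9 KO CMPs and 8.71 in MLL-AF9 KO KSLs, against 12.49 in control CMPs. The 6 stem cell markers read on single-symbol probe sets did not set the KSL arrays apart: none passed the test against MLL-AF9 KO CMPs, and Procr, a stem cell surface receptor, averaged 4.84 in MLL-AF9 KO KSLs and 4.88 in control CMPs. The KSLs also held Ighm, the immunoglobulin heavy chain, at 9.22, against 6.34 in MLL-AF9 KO CMPs. Several groups of transplanted cells had noisier arrays than the untransduced cells. The weights that limma estimates for arrays were 1.26 in secondary KO L-GMPs, 0.85 (secondary) and 0.31 (primary) in control L-GMPs, 0.26 to 0.54 in MLL-AF9 KO CMPs and 0.28 in MLL-AF9 KO KSLs, against 1.54 to 2.92 in the untransduced cells, where a higher weight means a quieter array. The primary KO L-GMP array is alone in its group and has no such estimate. Transplantation and the experiment a sample came from cannot be told apart in any comparison of transplanted with untransduced cells.

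All 26 genes lie in 3 stretches of the mouse genome (GRCm38.p6). Chromosome 13 holds 17 of them between 23531044 and 23934913 and 5 between 21722044 and 22041362, and chromosome 3 holds 4 between 96221072 and 96270192. The gene models span 375 to 903 bases in 23 genes and are longer in H2bc21 (2667 bases), H2bc4 (8282 bases) and H2bc22 (14079 bases), all of class H2B. Promoter windows from 250 bases before to 50 after the transcription start were matched for 22 members, from RefSeq (GRCm38.p6). Those of 6 genes are printed to show the promoter words and because the results below turn on them: H4c3, H4c4, H2ac4 and H1f5 are genes with large differences between groups, H1f2 is an H1 gene with another pattern, and H2bc8 carries the H2B octamer. Capitals mark matches, on either strand, to 5 words known from histone promoters: the H2B octamer ATTTGCAT, the H1 box AAACACA, the core GGTCCG of the H4 site bound by HiNF-P, CCAAT and TATAAA. Each line gives the sense strand of the gene, 5′ to 3′.
H4c3 (chr13:23698409-23698708, minus strand): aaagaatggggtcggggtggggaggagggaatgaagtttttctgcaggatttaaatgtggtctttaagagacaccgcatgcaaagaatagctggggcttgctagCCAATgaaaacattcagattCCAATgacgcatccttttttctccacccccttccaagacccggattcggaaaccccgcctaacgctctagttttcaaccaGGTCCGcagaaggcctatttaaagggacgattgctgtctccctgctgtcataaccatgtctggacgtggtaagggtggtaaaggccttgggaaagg
H4c4 (chr13:23581318-23581617, plus strand): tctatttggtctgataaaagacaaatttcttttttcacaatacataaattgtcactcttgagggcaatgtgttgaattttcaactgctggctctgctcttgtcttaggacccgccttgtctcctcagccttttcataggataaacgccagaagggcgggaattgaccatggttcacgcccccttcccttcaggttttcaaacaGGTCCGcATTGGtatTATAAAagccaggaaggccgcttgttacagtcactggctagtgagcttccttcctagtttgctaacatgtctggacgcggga
H2ac4 (chr13:23750838-23751137, plus strand): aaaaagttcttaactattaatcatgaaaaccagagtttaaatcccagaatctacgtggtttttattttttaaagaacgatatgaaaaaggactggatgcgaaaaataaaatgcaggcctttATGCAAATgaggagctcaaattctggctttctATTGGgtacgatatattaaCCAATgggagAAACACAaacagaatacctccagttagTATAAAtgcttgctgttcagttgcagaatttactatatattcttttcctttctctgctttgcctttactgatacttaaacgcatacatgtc
H1f5 (chr13:21780576-21780875, minus strand): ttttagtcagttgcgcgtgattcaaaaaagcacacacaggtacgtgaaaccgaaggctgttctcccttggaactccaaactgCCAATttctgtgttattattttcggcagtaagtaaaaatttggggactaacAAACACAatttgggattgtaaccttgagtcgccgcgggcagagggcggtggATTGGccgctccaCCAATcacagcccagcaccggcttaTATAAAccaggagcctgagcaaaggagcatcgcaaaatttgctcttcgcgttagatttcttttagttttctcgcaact
H1f2 (chr13:23738557-23738856, plus strand): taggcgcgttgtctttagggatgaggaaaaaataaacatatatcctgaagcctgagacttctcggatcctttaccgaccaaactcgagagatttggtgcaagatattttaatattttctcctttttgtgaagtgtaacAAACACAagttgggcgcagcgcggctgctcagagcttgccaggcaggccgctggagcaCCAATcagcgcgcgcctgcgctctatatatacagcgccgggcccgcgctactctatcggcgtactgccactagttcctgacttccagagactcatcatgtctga
H2bc8 (chr13:23571150-23571449, plus strand): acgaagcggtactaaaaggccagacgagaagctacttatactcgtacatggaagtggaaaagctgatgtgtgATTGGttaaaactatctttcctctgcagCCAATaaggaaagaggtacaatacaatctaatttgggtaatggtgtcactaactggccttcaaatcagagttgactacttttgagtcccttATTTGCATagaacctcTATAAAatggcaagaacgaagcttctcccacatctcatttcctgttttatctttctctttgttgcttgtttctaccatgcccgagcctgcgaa

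The words were unevenly spread over the classes. GGTCCG was present in 5 of 5 H4 promoters, in 1 of 7 H2B promoters and in 8.25% of the 32851 promoters of the table. It began 46 bases before the start in H4c3, H4c6 and H4c9, 47 bases before it in H4c4, and 5 bases before it in H4c8. The octamer ATTTGCAT was found in 5 of 7 H2B and 3 of 4 H2A promoters and in no other class, against 1.74% of all promoters. Part of that sharing is positional: H2ac8 and H2bc8 are divergent genes whose starts lie 180 bases apart, and H2ac1 and H2bc1 lie 281 bases apart, so that each pair shares sequence in its windows. AAACACA was present in 3 of 4 H1, 2 of 4 H2A and 2 of 7 H2B promoters (7.18% of all), so it was not confined to H1. Its matches in H2ac1 and H2bc1 are the same site, read from both genes of that pair. CCAAT was present in 19 of the 22 (37.4%) and TATAAA in 15 of the 22 (13.6%). These counts describe letters in a window, not binding.

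**Figure D1:**
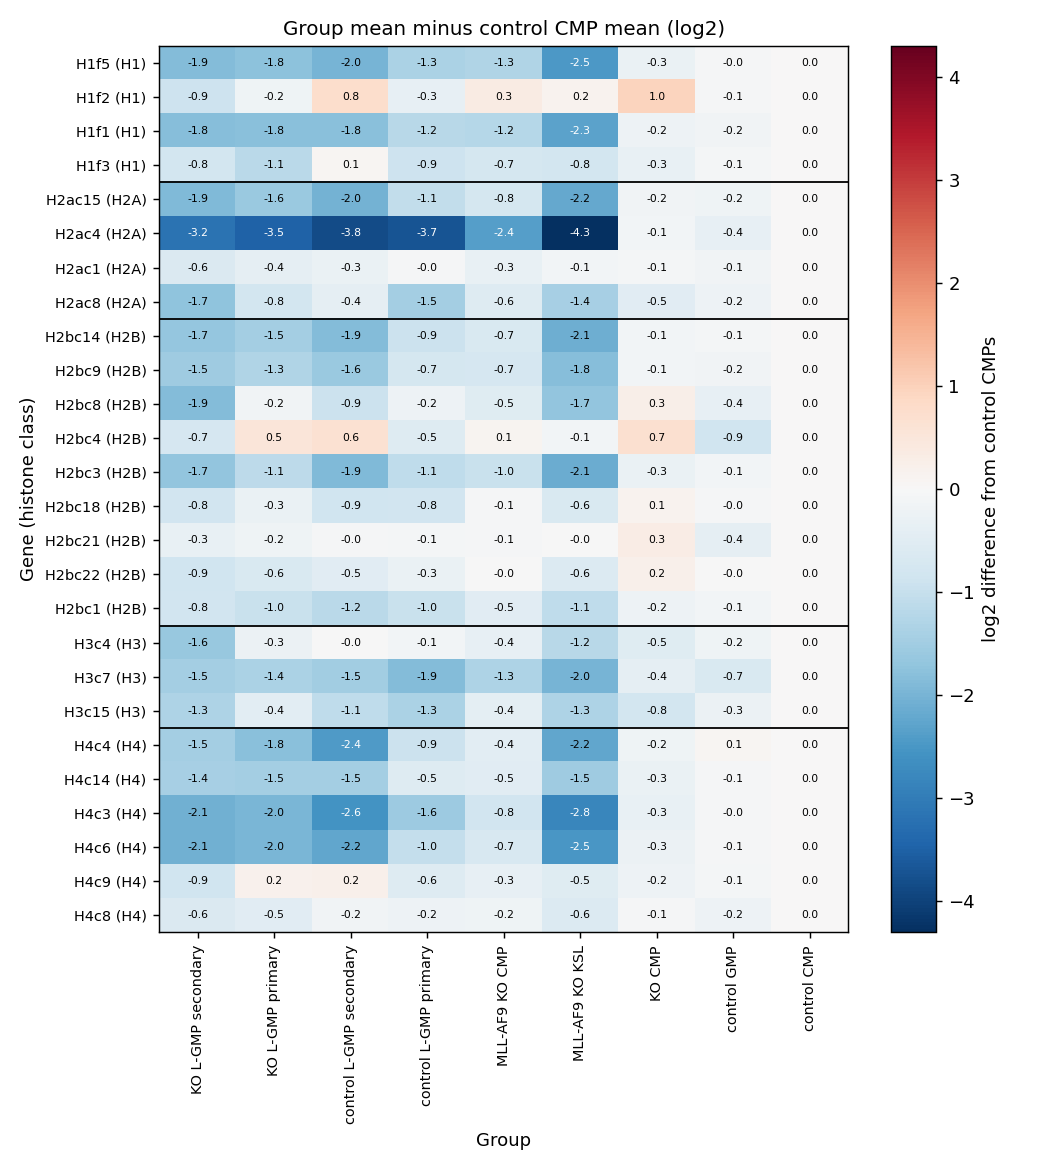
Group mean minus the mean of control CMPs on the log2 scale, for 26 histone genes (down the page, by class) in 9 groups (across, L-GMPs at the left and control CMPs at the right, 1 to 4 arrays each). Blue is lower and red is higher than control CMPs, and H2ac4 in MLL-AF9 KO KSLs is the lowest cell.

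Levels of most members were lowest in MLL-AF9 KO KSLs or L-GMPs and highest in untransduced CMPs, as the colour map of group means shows. The lowest group mean was in MLL-AF9 KO KSLs for 11 of the 26 genes and in secondary KO L-GMPs for 8. The highest mean was in KO CMPs for 6 genes and in control CMPs for 17. Over all 26 genes, the median level per array lay between 6.87 and 7.86 on the 7 L-GMP arrays, between 7.59 and 8.07 in MLL-AF9 KO CMPs and at 6.69 and 7.21 in MLL-AF9 KO KSLs, against 8.58 to 9.18 on the 11 arrays of untransduced cells, with no overlap between the transplanted and the untransduced arrays. Levels are RMA log2 values. They compare samples within 1 gene and not genes with each other, and a difference of 1 is a 2-fold change.

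By class, the span of group means was widest for these members. H2ac4, a core H2A gene, spanned 4.27 log2 units, with 5.43 in MLL-AF9 KO KSLs against 9.70 in control CMPs. In class H4, H4c3 spanned 2.82 (6.79 in MLL-AF9 KO KSLs, against 9.61 in control CMPs), and in class H1, H1f5 spanned 2.45 (8.17 and 10.63 in those groups). Among H2B genes H2bc3 (2.13) and H2bc8 (2.13) spanned most, and H3c7 (2.00) among H3 genes. The narrowest spans were 0.70 for H2bc21, 0.64 for H4c8 and 0.63 for H2ac1. H2ac1 and H2bc1, the H2A and H2B forms made in the testis, had group means of 6.25 to 6.88 and of 4.48 to 5.65. H4c4 stood between 9.24 and 12.71 over all arrays, H2ac15 between 8.38 and 11.02 and H2bc14 between 8.50 and 11.34. Near the low end of the scale, H3c15 lay between 3.36 and 5.67, H1f3 between 3.79 and 5.29, and H3c7 touched the floor of 3 on 2 arrays, so differences in these genes are compressed.

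Read class by class, the median over the 4 H1 genes averaged 8.46 in secondary and 8.86 in primary control L-GMPs, against 9.61 in control GMPs. Within H1 the genes did not run together. H1f1, like H1f5, had its lowest group mean in MLL-AF9 KO KSLs (7.77), against 9.86 in KO CMPs, 9.92 in control GMPs and 10.08 in control CMPs, its 3 highest means. H1f2 averaged 8.47 in secondary KO L-GMPs, 10.13 in secondary and 9.02 in primary control L-GMPs and 10.34 in KO CMPs, against 9.30 in control GMPs and 9.37 in control CMPs, so its means in transplanted and untransduced groups overlapped.

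The median over the 6 H4 genes averaged 7.67 in secondary and 8.32 in primary control L-GMPs and 8.78 in MLL-AF9 KO CMPs, against 7.39 in MLL-AF9 KO KSLs, 9.45 in control GMPs and 9.51 in control CMPs. H4c6 (chr13:23551286-23551668) averaged 7.37 in secondary KO L-GMPs, 7.20 ± 0.91 and 8.43 ± 0.51 in secondary and primary control L-GMPs (SD, n = 2 each) and 6.95 in KSLs, against 9.38 in control GMPs. H4c9 (chr13:22040960-22041362) ran the other way within the leukaemias, with 8.22 ± 0.20 in secondary and 7.43 ± 0.39 in primary control L-GMPs (SD, n = 2 each), against 7.90 ± 0.20 in control GMPs (SD, n = 3). H4c8 kept within 6.38 and 7.02 in all group means.

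Among H2B genes, H2bc8 (chr13:23571400-23571863) was uneven within a group, at 10.90 and 9.19 on the primary control L-GMP arrays. It averaged 10.52 in KO CMPs, 9.90 in control GMPs and 10.26 in control CMPs. H2bc22 lay between 5.18 in secondary KO L-GMPs and 6.26 in KO CMPs, and H2bc18 between 6.64 in secondary control L-GMPs and 7.65 in KO CMPs. These spans are narrow beside that of H2bc14, which averaged 9.08 in MLL-AF9 KO KSLs, against 11.17 in control CMPs. For H3c4, an H3 gene, the MLL-AF9 KO CMP arrays ranged from 6.31 to 8.28, a range wider than the span of its group means (1.63). H2ac8, the partner of H2bc8, averaged 4.68 in secondary KO L-GMPs, against 6.40 in control CMPs.

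**Figure D2:**
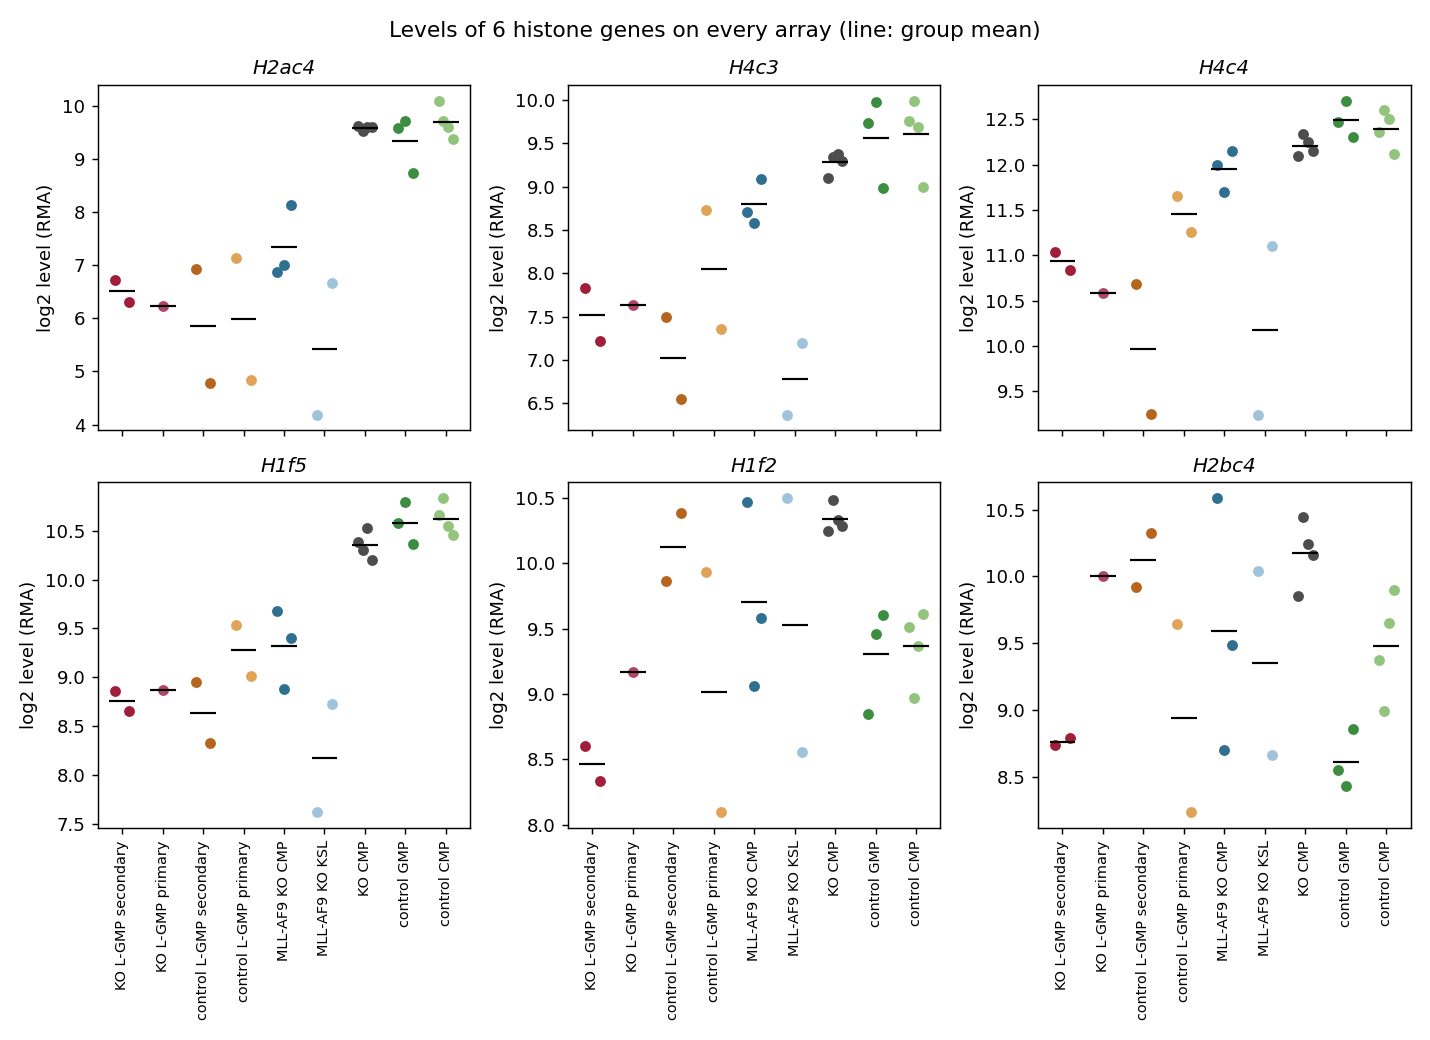
Log2 level (RMA) of 6 histone genes on every array, with 1 point per array, groups along the x axis and a line at the group mean. H2ac4, H4c3, H4c4 and H1f5 are lower on L-GMP and MLL-AF9 KO KSL arrays than in untransduced cells, while H1f2 and H2bc4 vary from array to array within the transplanted groups.

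Control L-GMPs set against control GMPs, the leukaemic cells and the normal progenitors they resemble by gate, gave the largest set of differences. Histone genes of all 5 classes fell: 14 of 26 were lower and 0 higher (limma, Benjamini-Hochberg adjusted over 19937 genes, threshold 0.05), where 25.3% of all genes were called and 14.7% were called lower. The 14 were 2 of 4 H1, 2 of 4 H2A, 5 of 9 H2B, 1 of 3 H3 and 4 of 6 H4 genes. The H3 gene was H3c7, close to the floor of 3. It lay at 3.80 to 3.82 in secondary and 3.00 to 3.93 in primary control L-GMPs, against 4.36 to 5.03 in GMPs. The H2B genes include the dim testis form H2bc1, which averaged 4.48 in secondary and 4.68 in primary control L-GMPs, against 5.51 in GMPs. The median change was -0.94 over the 26 genes and -0.02 over all genes. For 12 of the 26 every control L-GMP array lay below every GMP array, against 17.7% of all genes. In bulk samples, fewer cells in S phase and less histone mRNA per cell cannot be told apart.

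H2ac4 was at 6.92 and 4.78 in secondary and 7.14 and 4.83 in primary control L-GMPs, against 9.58, 9.72 and 8.74 in control GMPs. Its difference was -3.43 ± 0.61 (log2 ± SE, limma adjusted p = 0.00133), with 1 high and 1 low array in each L-GMP group. H4c3 was at 7.50 and 6.55 in secondary and 8.74 and 7.36 in primary control L-GMPs, against 9.73, 9.98 and 8.98 in GMPs (-2.03 ± 0.35, limma adjusted p = 0.00105). The groups did not overlap, and the highest L-GMP array was close to the lowest GMP array. H4c4 had 10.68 and 9.25 in secondary and 11.66 and 11.25 in primary control L-GMPs, against 12.47, 12.71 and 12.30 in GMPs (-1.78 ± 0.35, limma adjusted p = 0.00242). Both secondary arrays were below both primary ones. H1f5, a linker histone, had 8.95 and 8.32 in secondary and 9.54 and 9.01 in primary control L-GMPs, against 10.58, 10.79 and 10.36 in GMPs (-1.62 ± 0.24, limma adjusted p = 0.000415). All 4 L-GMP arrays were low.

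Further falls were H4c6 (-1.57 ± 0.46), H2bc3 (-1.39 ± 0.27), H2ac15 (-1.36 ± 0.20) and the linker histone H1f1 (-1.33 ± 0.27). The other 6 called genes, H2bc14, H2bc9, H2bc18, H2bc1, H3c7 and H4c14, fell by 0.81 to 1.31. Members outside the call differed in sign. H2bc4 was at 9.92 and 10.33 in secondary and 9.64 and 8.23 in primary control L-GMPs, against 8.55, 8.43 and 8.85 in GMPs, a difference of 0.92 ± 0.41 (limma adjusted p = 0.112). Of the 4 other genes with a positive value, H2bc21 had 0.32 ± 0.35, H1f2 0.27 ± 0.45, H3c4 0.11 ± 0.44 and H4c8 0.05 ± 0.24. Among the 3 genes with models over 1000 bases (H2bc4, H2bc21 and H2bc22) 0 were called, against 14 of the 23 shorter ones. H1f2, with 725 bases, was among the shorter genes not called. A part of gene length in the result was not tested. H4c9, whose GGTCCG stands at the same 46 bases as in H4c3, had -0.08 ± 0.16.

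Leaving out each array in turn kept the count between 10 and 14 genes, and in the fit without primary control L-GMP array 2 the 12 genes were 11 lower and 1 higher. With array weights it was 12, all among the 14. H4c6 lost the call without primary control L-GMP array 2, secondary control L-GMP array 2 or GMP arrays 1 or 2 (adjusted p up to 0.098).

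The 22 probe sets that carry several histone symbols moved the same way when the fit was run on all 34760 probe sets, an alternative added after the data were seen. In control L-GMPs against GMPs 17 of 22 were lower and 0 higher, where 25.9% of all probe sets were called, and their median was -1.10. They were 6 of 6 probe sets for H2B, 6 of 9 for H3 and 4 of 5 for H4, and 1 of mixed H2A and H3 symbols. The mixed set, with 17 symbols that fit the rule, averaged 7.03 in secondary and 6.77 in primary control L-GMPs, against 9.26 in GMPs (-2.36 ± 0.53, limma adjusted p = 0.00597). One H2B probe set with 13 such symbols averaged 10.50 in secondary and 10.83 in primary control L-GMPs, against 11.99 in GMPs (-1.33 ± 0.23, limma adjusted p = 0.00148). Because histone genes of a class have nearly the same coding sequence, a probe set named for 1 gene may also bind mRNA of others, and the call of any single symbol is uncertain to that extent.

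**Figure D3:**
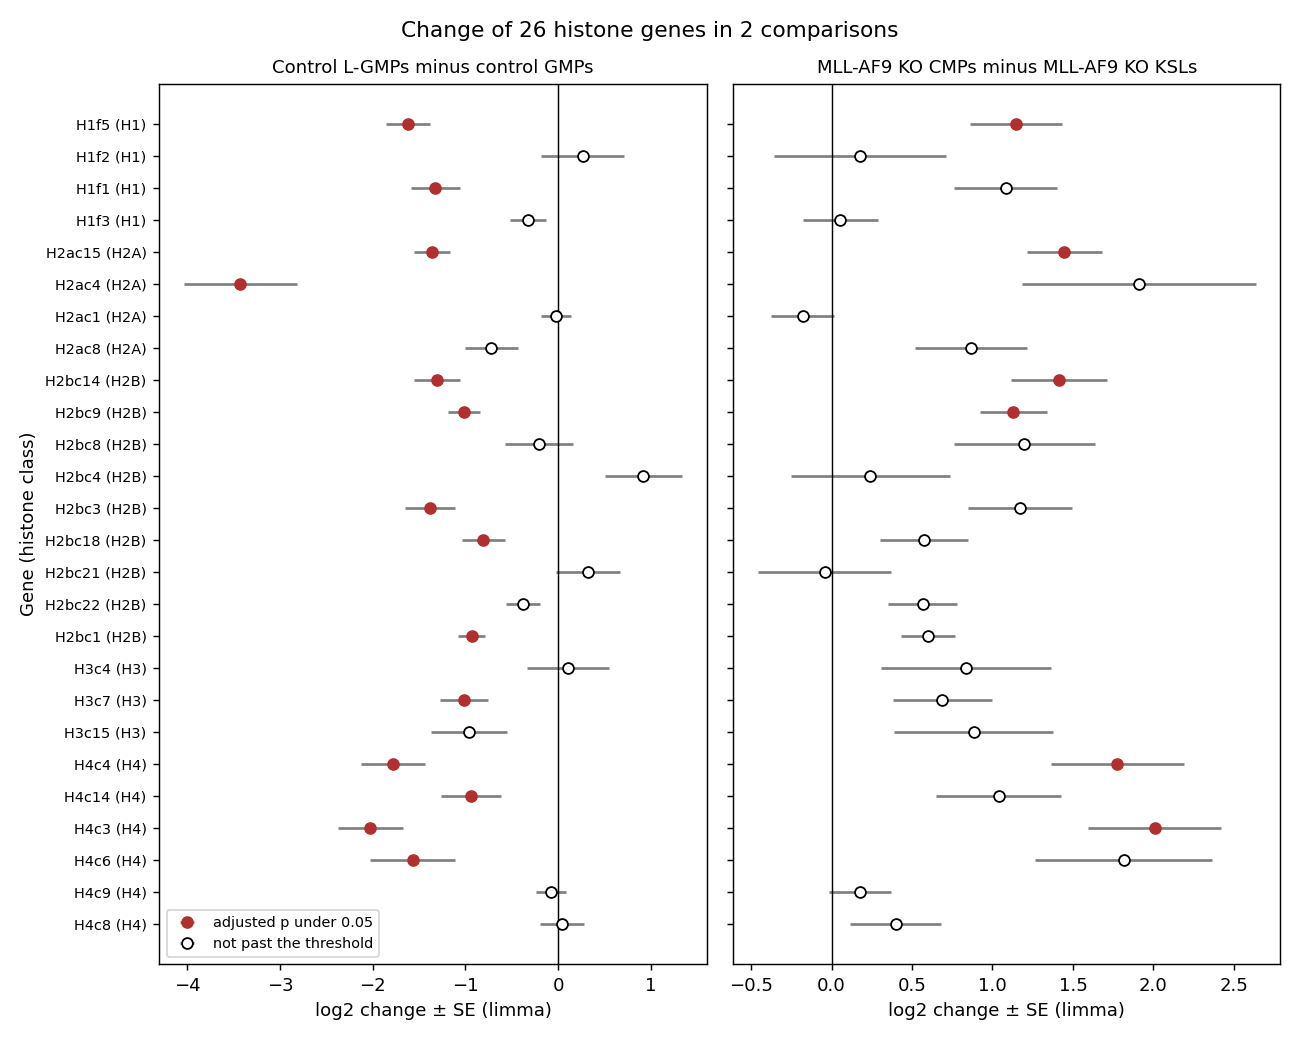
Log2 change with its standard error from limma for each of 26 histone genes, in control L-GMPs minus control GMPs (left) and in MLL-AF9 KO CMPs minus MLL-AF9 KO KSLs (right). Filled points passed an adjusted p of 0.05: 14 genes at the left, all below 0, and 6 at the right, all above 0.

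Genes that act with the histones were read from lists. Of 21 measured genes for histone mRNA synthesis and processing, 5 fell in control L-GMPs against GMPs and 1 rose. This share of calls was near the 25.3% of all genes called in either direction, and 14.7% of all genes were called lower. Coil, the Cajal body scaffold (-0.89 ± 0.27), Cpsf2, a subunit of the 3′ end cleavage complex (-0.86 ± 0.19), and Ccne2, cyclin E2 (-0.82 ± 0.27), had the largest changes. Slbp, which binds the stem-loop, averaged 7.90 in control L-GMPs and 8.66 in GMPs (-0.76 ± 0.13, limma adjusted p = 0.00107). Npat, the activator of the clusters, had -0.50 ± 0.22 and did not pass (limma adjusted p = 0.106). It averaged 7.34 in secondary and 6.44 in primary control L-GMPs, against 7.39 in GMPs, so the difference lay in the primary arrays. Casp8ap2, a partner of the NPAT complex, completed the 5 falls (-0.51 ± 0.15), and Cpsf3, the nuclease of histone 3′ ends, rose by 0.23 ± 0.08. Of 16 histone chaperones 4 fell and 0 rose, where 25.3% of all genes were called and 14.7% were called lower. They were Asf1b (-0.71 ± 0.15), Chaf1a (-0.61 ± 0.17), Supt16 (-0.58 ± 0.14) and Chaf1b (-0.51 ± 0.18), all of which handle histones at or behind the fork. Of 9 replication-independent variants 3 fell, H2ax, the form marked at DNA breaks (-0.94 ± 0.21), the centromere histone Cenpa (-0.44 ± 0.15) and H2az1 (-0.27 ± 0.09).

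Markers of S phase and mitosis were lower in the same contrast. Of 26 DNA replication genes 18 fell and 0 rose, with a median change of -0.76, led by the ribonucleotide reductase subunits Rrm2 (-1.70 ± 0.26) and Rrm1 (-1.20 ± 0.27) and the replication-linked methylation factor Uhrf1 (-1.12 ± 0.17). Of 19 mitosis genes 17 fell and 0 rose, with a median of -0.94. Across arrays, the median level of the 26 replication genes was 7.56 and 7.74 in secondary and 7.97 and 8.01 in primary control L-GMPs, against 8.48 to 8.60 in GMPs. Their part in the histone result was not tested. Gate and lineage genes moved as well: Kit averaged 7.63 in control L-GMPs and 8.85 in GMPs (-1.23), and of 5 lymphocyte markers 4 rose and 1 fell. Ighm averaged 7.05 in control L-GMPs and 5.97 in GMPs, and Nkg7, a gene of cytotoxic cells, averaged 8.08 in control L-GMPs and 10.98 in GMPs (-2.90 ± 0.45). Over the 5 lymphocyte genes the median per array lay at 6.57 to 6.74 in secondary and 6.70 to 7.56 in primary control L-GMPs, against 5.60 to 6.69 in GMPs. Of the other marker lists 3 of 8 granulocyte-monocyte genes and 1 of 4 mast cell and basophil genes fell, 1 of 4 megakaryocyte genes fell, 1 of 4 stromal genes rose, and 0 of 6 neutrophil and 0 of 4 erythroid genes passed. Their part was not tested either.

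**Figure D4:**
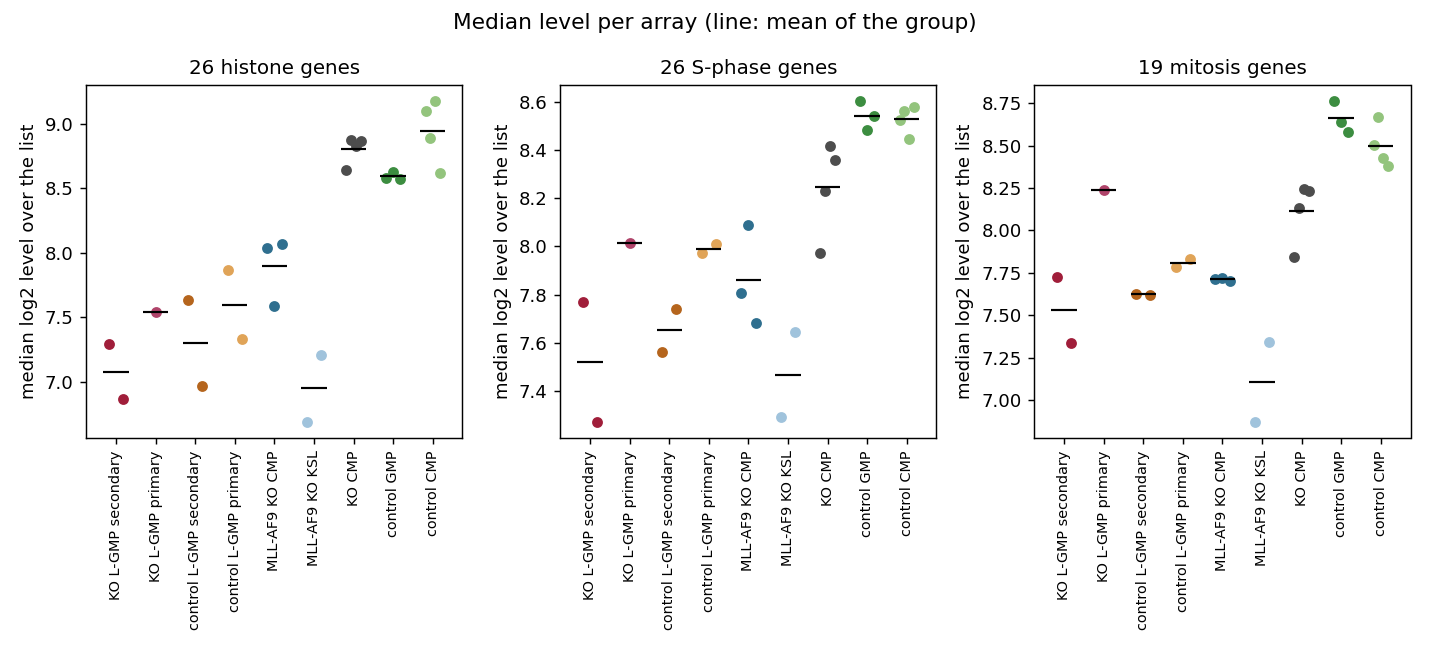
Median log2 level per array over 26 histone genes (left), 26 S-phase genes (middle) and 19 mitosis genes (right), with 1 point per array, groups along the x axis and a line at the mean of each group. For histone and S-phase genes, MLL-AF9 KO KSL array 1 and secondary KO L-GMP array 2 are the lowest points, and the untransduced CMPs and GMPs are highest in the histone panel.

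Secondary against primary control L-GMPs compared arrays from secondary and primary recipients. The labels do not say whether both come from the same leukaemias, so transplantation and the leukaemia of origin cannot be told apart. Of the 26 members 2 rose and 2 fell, where 7.70% of all genes were called, 4.04% higher and 3.67% lower. Without overlap between the groups 4 members were higher and 8 lower, against 18.9% and 22.6% of all genes. H1f3 was at 4.87 and 5.15 in secondary and 4.26 and 3.81 in primary L-GMPs (0.98 ± 0.26, limma adjusted p = 0.0295), and H4c9 was at 8.08 and 8.36 in secondary and 7.15 and 7.70 in primary ones (0.80 ± 0.21, limma adjusted p = 0.031). H2ac15 was at 9.18 and 8.46 in secondary and 10.02 and 9.57 in primary L-GMPs (-0.98 ± 0.26, limma adjusted p = 0.0301), and H2bc9 at 9.43 and 8.59 in secondary and 10.00 and 9.72 in primary ones (-0.86 ± 0.23, limma adjusted p = 0.0313). With 2 arrays a group, the count was 0 with array weights or with these 4 arrays fitted alone, 0 without secondary array 2 and 2 without primary array 2, and without primary array 1 it was 4 higher genes, of which 1 was among those called above. Of the replication genes 3 fell, Cdc45 (-0.95 ± 0.24), Pola1 (-0.89 ± 0.26) and Mcm2 (-0.77 ± 0.22), and 0 of 19 mitosis genes passed. Of 21 histone mRNA genes Cpsf3 rose (0.48 ± 0.10) and Gon4l fell (-0.48 ± 0.13), and of the chaperones and variants Hira (-0.58 ± 0.16) and H2az1 (-0.48 ± 0.11) fell. Among markers the neutrophil gene Mmp8 rose (1.46 ± 0.41), and Nkg7 (-2.36 ± 0.59), Csf3r (-0.84 ± 0.21) and Pecam1 (-1.30 ± 0.28), each from another list, fell. Their part was not tested. Of the shared histone probe sets 2 of 22 fell and 0 rose (5.91% of all probe sets called).

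MLL-AF9 KO CMPs against KSLs of recipients without leukaemia asked how histone levels differ between the progenitor and the stem cell gate. Of the 26 members 6 were higher in CMPs and 0 lower, where 3.32% of all genes were called and 2.02% were called higher. The median change was 0.87, against 0.00 over all genes. For 17 genes all 3 CMP arrays lay above both KSL arrays, against 10.9% of all genes. The 6 were 2 H4, 2 H2B, 1 H2A and 1 H1 gene.

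H4c3 was at 8.71, 8.58 and 9.09 in MLL-AF9 KO CMPs, against 6.37 and 7.20 in KSLs (2.01 ± 0.42, limma adjusted p = 0.0171). H4c4 was at 11.99, 11.70 and 12.15 in CMPs, against 9.24 and 11.10 in KSLs (1.78 ± 0.41, limma adjusted p = 0.0307). H2ac15 was at 10.16, 9.87 and 10.25 in CMPs, against 8.38 and 8.91 in KSLs (1.45 ± 0.23, limma adjusted p = 0.00451). In each of the 3 genes KSL array 1 was the lowest. H2bc14 was at 10.64, 10.34 and 10.51 in CMPs, against 8.50 and 9.67 in KSLs (1.42 ± 0.30, limma adjusted p = 0.0191). H1f5 (1.15 ± 0.29) and H2bc9 (1.13 ± 0.21) completed the list, and H2ac4 had the second largest change (1.91 ± 0.73) but did not pass (limma adjusted p = 0.154).

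KSL array 1 decided much of this count. Without it 1 gene, H2ac15, was still called, without KSL array 2 the count was 12, without CMP array 3 it was 3, and without CMP array 2 it was 9. With array weights or with these 5 arrays fitted alone the count was 0, and of all 19937 genes 3 were called with weights and 0 in the fit of 5 arrays. Arrays 1 and 2 of both cell types come from the same mice. Within mouse 1 the CMPs were above the KSLs for 24 of 26 histone genes, with a median difference of 1.34, and within mouse 2 for 20 of 26, with a median of 0.30. The CMPs were higher in both mice for 18 genes, or 69.2%, against 22.5% of all genes. With the mouse as a block 5 of the 6 genes were called, H1f5 excepted (1.11, limma adjusted p = 0.0755).

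H1f2 and H2bc4 differed more between the mice than between the cell types. H1f2 was at 10.47 in CMPs and 10.50 in KSLs of mouse 1, and at 9.06 in CMPs and 8.56 in KSLs of mouse 2. H2bc4 was at 10.59 in CMPs and 10.04 in KSLs of mouse 1, and at 8.70 in CMPs and 8.66 in KSLs of mouse 2. The 22 shared probe sets gave 10 higher and 0 lower (3.21% of all probe sets called), with a median of 1.29. S-phase and mitosis genes moved with them: 2 of 26 and 4 of 19 rose, with medians of 0.35 and 0.31, among them Tyms, thymidylate synthase (0.74 ± 0.19), and Aurkb, a mitotic kinase (0.87 ± 0.17). Ighm differed by -2.88 ± 0.39, and the median over 5 lymphocyte genes lay at 5.89 to 7.02 in CMPs, against 7.24 and 7.66 in KSLs. Over 4 mast cell and basophil genes the median lay at 4.43 to 9.93 in CMPs and at 5.85 and 10.30 in KSLs. Arrays of the same cell type thus varied widely in these markers. Of the histone mRNA genes and chaperones 0 of 21 and 0 of 16 passed, and 1 of 9 variants, H2az1, rose (0.41 ± 0.10). The part of these genes in the result was not tested.

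MLL-AF9 KO CMPs against KO CMPs set transduced, transplanted cells against freshly taken cells of the same genotype and the same labelled gate. Of the 26 members 3 fell and 0 rose, where 4.88% of all genes were called and 3.36% were called lower, and the median change was -0.43. H2ac4 was at 6.88, 7.00 and 8.13 in MLL-AF9 KO CMPs, against 9.52 to 9.62 in KO CMPs (-2.25 ± 0.61, limma adjusted p = 0.0439). H1f5 was at 9.67, 8.88 and 9.40 in MLL-AF9 KO CMPs, against 10.20 to 10.53 in KO CMPs (-1.04 ± 0.24, limma adjusted p = 0.0223). H1f1 was at 8.78, 8.68 and 9.08 in MLL-AF9 KO CMPs, against 9.77 to 9.93 in KO CMPs (-1.01 ± 0.27, limma adjusted p = 0.0399). None of the 3 genes overlapped between the groups, and 13 of the 26 members lay wholly lower, against 9.40% of all genes.

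The 3 calls were 2 of 4 H1 genes and 1 of 4 H2A genes, and 0 of 9 H2B, 0 of 3 H3 and 0 of 6 H4 genes passed. H4c4 was at 11.70 to 12.15 in MLL-AF9 KO CMPs, against 12.09 to 12.34 in KO CMPs (-0.26 ± 0.35). The count rests on few arrays. It was 0 with array weights, 0 without MLL-AF9 KO CMP array 2 or KO CMP arrays 1, 2 or 3, 1 without MLL-AF9 KO CMP array 1 or KO CMP array 4, and 4 without MLL-AF9 KO CMP array 3. With these 7 arrays fitted alone it was 5, of which 2 were among the 3. Of the histone mRNA genes 3 of 21 fell, namely Npat (-0.98 ± 0.22), Slbp (-0.62 ± 0.13) and Casp8ap2 (-0.56 ± 0.15). Atrx, which places the variant H3.3 (-0.70 ± 0.14), and Supt16 (-0.53 ± 0.14) fell among the 16 chaperones. Of the variants H2az2 fell (-0.57 ± 0.14) and H2aj rose (0.44 ± 0.11). In this comparison 4 of 26 replication genes and 7 of 19 mitosis genes fell, led by Pola1 (-1.01 ± 0.19) and Cenpe (-1.38 ± 0.14). Of the 4 gate genes Cd34 fell (8.40 in MLL-AF9 KO CMPs and 10.23 in KO CMPs), as did Fcgr3 (5.48 in MLL-AF9 KO CMPs and 7.96 in KO CMPs). Of 8 granulocyte-monocyte genes 4 fell, led by Mpo (-3.97 ± 0.60), and 0 of 5 lymphocyte genes passed. The part of these genes in the histone result was not tested. Of the shared probe sets 2 of 22 fell (4.26% of all called).

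L-GMPs were also set against the non-leukaemic MLL-AF9 KO progenitors, KSLs and CMPs at equal weight. Control L-GMPs differ from these progenitors in C/EBPa genotype, gate and leukaemia at once, and KO L-GMPs in gate and leukaemia. These cannot be told apart. No histone gene passed in control L-GMPs (19.0% of all genes called) or in KO L-GMPs (13.2%) by limma, and 1 of 26 had an unadjusted p under 0.05 in each. The median change was -0.00 in control L-GMPs and -0.18 in KO L-GMPs. The smallest p in control L-GMPs belonged to H2bc18 (-0.50 ± 0.20), H2bc1 (-0.26 ± 0.13) and H1f3 (0.36 ± 0.17), and in KO L-GMPs to H2bc22 (-0.45 ± 0.18), H1f2 (-0.79 ± 0.45) and H2ac1 (-0.29 ± 0.16). The 2 comparisons share their 5 progenitor arrays. Mitosis genes differed where histones did not pass: 6 of 19 rose in control and 9 of 19 in KO L-GMPs, and Cenpe, a mitotic motor, had 1.04 ± 0.13 in control and 1.15 ± 0.14 in KO L-GMPs. Of the 26 replication genes 5 rose in control L-GMPs, a share of calls near the 19.0% of all genes called in either direction. Cdc45, a helicase cofactor, led them (0.84 ± 0.16), and 0 passed in KO L-GMPs. Of the shared probe sets 2 of 22 rose in control L-GMPs (13.6% of all called) and 1 in KO L-GMPs (8.88%). The KSL and CMP arrays in the pool differ from each other in histone level, as given above, and leaving out 1 array moved the counts between 0 and 2. Without KSL array 1, 2 genes were lower in each comparison. In control L-GMPs 1 gene passed without KSL array 2, CMP array 1, primary array 1 or primary array 2, and in KO L-GMPs 1 gene passed without KSL array 2 or secondary array 1.

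KO and control cells were compared in CMPs and in L-GMPs. The KO L-GMPs are 1 leukaemia that arose after vectors for IL-3 and GM-CSF. In L-GMPs genotype therefore cannot be told apart from that leukaemia and its vectors. No histone gene was called in KO against control CMPs (4.91% of all genes called) or in KO against control L-GMPs (3.27%), by limma, with 1 of 26 at an unadjusted p under 0.05 in each. The median change over the 26 genes was -0.20 in CMPs and -0.19 in L-GMPs. In CMPs H1f2 stood at 10.25, 10.49, 10.33 and 10.29 in KO cells, against 9.51, 8.97, 9.37 and 9.61 in control cells, a difference of 0.97 ± 0.41 (limma adjusted p = 0.253). Its KO arrays all lay above its control arrays, as for 9.86% of all genes, and it passed with array weights (limma adjusted p = 0.00282) and with the CMP arrays fitted alone (limma adjusted p = 0.00481). Without overlap 2 members, H3c15 among them, lay lower in KO CMPs, against 11.3% of all genes. H3c15 (-0.80 ± 0.38) and H2bc4 (0.70 ± 0.38) had the next smallest p, and of these H3c15 passed with array weights (limma adjusted p = 0.0435) and with the CMP arrays alone (limma adjusted p = 0.044), and H2bc4 with array weights (limma adjusted p = 0.0186). In the fit of the CMP arrays alone 4 members were called, 1 higher and 3 lower. The 4.91% of all genes belongs to the main fit, so this count has no share of all genes beside it.

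In L-GMPs the smallest p belonged to H1f3 (-0.56 ± 0.20), H2ac1 (-0.35 ± 0.17) and H2bc22 (-0.36 ± 0.19). H1f2 was at 8.60 and 8.33 in secondary and 9.17 in primary KO L-GMPs, against 9.86 and 10.39 in secondary and 9.94 and 8.10 in primary control L-GMPs, so the groups overlapped (-0.75 ± 0.46). H4c8 was the 1 member whose KO arrays all lay lower (6.76% of all genes), at 6.45 and 6.31 in secondary and 6.54 in primary KO L-GMPs, against 6.74 to 6.98 in control L-GMPs. Without the primary KO array 1 member passed, lower in KO cells. The difference between the KO effect in L-GMPs and that in CMPs was tested as an interaction, with 0 of 26 members called (2.80% of all genes called) and 2 at an unadjusted p under 0.05. For H1f2 it was -1.72 ± 0.62 (limma adjusted p = 0.167, and 0.0269 with array weights), for H2bc22 -0.58 ± 0.25 and for H3c15 1.14 ± 0.57. The KO L-GMP side rests on 1 leukaemia that arose after vectors for IL-3 and GM-CSF, so the interaction is not one of genotype alone.

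Around the histones, KO CMPs had a lower H2aj, an H2A variant gene, at 8.47 against 9.27 in control CMPs (-0.80 ± 0.11, limma adjusted p = 0.000382). Atrx rose in the same cells (0.48 ± 0.13), Tk1, thymidine kinase, fell (-0.51 ± 0.13) as 1 of 26 replication genes, and Aurkb (-0.50 ± 0.13) and Aurka (-0.43 ± 0.10) fell among 19 mitosis genes. In L-GMPs Kif11, a spindle motor, rose in KO cells (0.85 ± 0.21), and 0 of 21 histone mRNA genes, 0 of 16 chaperones, 0 of 9 variants and 0 of 26 replication genes passed. For the shared probe sets the counts were 0 of 22 in CMPs (3.16% of all called) and 2 lower of 22 in L-GMPs (2.36%). Cell type markers differed too. In KO CMPs 7 of 8 granulocyte-monocyte genes fell, with a median of -3.26, and the gate gene Fcgr2b fell (-1.15 ± 0.27). No gene of the other marker lists passed there. In KO L-GMPs the mast cell gene Cpa3 fell (-4.74 ± 0.77). Mecom (4.29 ± 0.98), Nkg7 (2.59 ± 0.47) and Pecam1 (0.90 ± 0.22), each from another list, rose. Their part was not tested.

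Normal maturation was read from control GMPs against control CMPs. None of the 26 histone genes was called (1.05% of all genes called, limma), with 1 at an unadjusted p under 0.05. The median change was -0.13, against 0.00 over all genes. Of the 26 values 25 were below 0. Members of a class may share probes and all were read on the same arrays, so these signs are not independent and were not tested. H3c7 was at 4.36, 5.03 and 4.58 in GMPs, against 5.38, 5.13, 5.34 and 5.42 in CMPs (-0.66 ± 0.26, limma adjusted p = 0.452). H2bc4 was at 8.55, 8.43 and 8.85 in GMPs, against 9.38, 8.99, 9.65 and 9.90 in CMPs (-0.87 ± 0.41, limma adjusted p = 0.645). These 2 genes did not overlap between the groups, against 7.97% of all genes that lay wholly lower, and both passed with array weights (limma adjusted p = 0.0264 for H3c7 and 0.0448 for H2bc4). H2bc21, next by p, had -0.39 ± 0.35. In this contrast 0 of 26 replication, 0 of 19 mitosis, 0 of 21 histone mRNA, 0 of 16 chaperone and 0 of 9 variant genes passed, and 0 of 22 shared probe sets did (0.558% of all called).

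The testis-specific linker histone H1f6, which the rule does not include, had group means between 3.63 and 4.28, near the floor of 3.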

How the data were processed

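Log2 expression values made with RMA were deposited by the authors, per the submitters' processing notes, as 1 table of 34760 probe sets on 23 Affymetrix arrays. No version of RMA is stated there. The labels' protocols name NuGen Ovation Pico WTA V2 for amplification of the RNA. Values at exactly 3 are a floor, reached by 2952 to 3379 probe sets per array, and arrays give no counts, so their number limits the precision. The platform annotation gives 1 symbol to 21640 probe sets, several to 1321 and none to 11799, and 21553 of the probe sets with 1 symbol matched RefSeq by Entrez number, with 0 symbols changed. The probe set with the highest mean stood for a gene, which left 19937 genes.

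Groups were taken from the sample labels. A group-means model was fitted to all arrays with limma 3.58.1 (R 4.3.3, eBayes with a trend), p-values were Benjamini-Hochberg adjusted over all genes, and genes with adjusted p under 0.05 were called. Groups joined in 1 comparison had equal weight. The model was checked on simulated data. Members, gene lists and tests were chosen with earlier results of these data known. Within each comparison the rule for named genes took the called members (up to 8 with the largest change, the rest as a range), or the 3 with the smallest p where none was called, then the members of each class with extreme levels or spans, the testis forms, and up to 3 called genes of each other list. Further members were named after their values were seen. Alternatives were array weights, a fit of the compared arrays alone, a filter that kept genes above 5 on at least 2 arrays, quantile normalization again, the mean over a gene's probe sets, the replicate number as a block, and each array left out. Fits of primary or secondary control L-GMPs alone and of every probe set were added after the data were seen. Replicate numbers pair MLL-AF9 KO CMPs and KSLs, which come from the same mice (correlation of deviations 0.45 and 0.26). No pairing of other groups is known. The correlations cannot exclude it with so few arrays, as in control GMPs and CMPs of the same number (0.12, -0.03 and 0.11).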

Additional observations from a re-analysis of the deposited data

Results flagged for a closer look

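Among the 26 histone genes in the 2 groups of 4 arrays, 3 of 52 checks found an array far from the others of its group, and chance gives about 1 in 20. H2bc21 was at 6.53 on control CMP array 4, below the other control CMP arrays at 7.25 to 7.38. H4c14 was at 8.96 on the same array, below the others at 9.87 to 9.92. H1f3 was at 4.97 on KO CMP array 2, above the other KO CMP arrays at 4.48 to 4.54.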

How the results depend on the processing

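For the members that the naming rule took in each comparison, the direction was the same under every alternative run. Other members named in the text were not followed through the alternatives. With array weights the count of called histone genes was 3 in KO against control CMPs, 2 in GMPs against CMPs, 1 (H1f2) for the difference of the KO effects, and 0 in MLL-AF9 KO CMPs against KO CMPs, in MLL-AF9 KO CMPs against KSLs and in secondary against primary control L-GMPs. With the compared arrays alone it was 4 in KO against control CMPs, 5 in MLL-AF9 KO CMPs against KO CMPs, 0 in MLL-AF9 KO CMPs against KSLs and 0 in secondary against primary control L-GMPs. The filter on low levels gave 5 in MLL-AF9 KO CMPs against KO CMPs. The replicate block gave 1 in KO L-GMPs against non-leukaemic progenitors, 1 in MLL-AF9 KO CMPs against KO CMPs, 6 in secondary against primary control L-GMPs and 13 in control L-GMPs against GMPs, and outside the CMPs and KSLs of the same mice the numbers share no known source. The cause of these changes was not tested. Unless the text says otherwise, shares of all genes belong to the main fit. Counts under the alternatives then have no such share beside them.

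Leaving out 1 array gave 0 to 1 called genes in KO against control L-GMPs, 0 to 2 in control and in KO L-GMPs against non-leukaemic progenitors, 0 to 4 in MLL-AF9 KO CMPs against KO CMPs, 1 to 12 in MLL-AF9 KO CMPs against KSLs and 0 to 5 in secondary against primary control L-GMPs. In groups cut to 1 array, that array is assumed to vary like those of the other groups. In control L-GMPs against GMPs the same fits gave 10 to 14 called genes, of which 10 to 14 were among the 14 called above. With primary control L-GMPs alone 12 genes were called, of which 10 were among the 14, and with secondary control L-GMPs alone 15 were called, 14 of them the same. Dim members such as H3c15, H3c7 and H1f3 lie near the floor, where the array compresses differences.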
